A study of Mus musculus with 5 samples.

Results

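The 10 mouse genes described here encode enzymes of branched-chain amino acid breakdown and their regulating kinase, namely Bcat2, Bckdha, Bckdhb, Dbt, Bckdk, Ivd, Mccc1, Mccc2, Pcca and Pccb. They were chosen by their place in this pathway, after the read numbers of miR-122-5p sites in Mccc1 and Bcat2 in these same tables were known, so those read numbers are given as a description and support nothing. Members were the entries whose gene column named 1 of the 10 symbols, and all 10 were listed under an mRNA region in at least 1 library, of 14348 genes so listed in all. Of these, 10739 genes with a mean level of at least 1 RPM (reads per 1000000 summed cluster reads of the library) form the comparison group, and all 10 members are among them.

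Leucine, isoleucine and valine are first transaminated to branched-chain keto acids by the mitochondrial aminotransferase Bcat2. The branched-chain keto acid dehydrogenase complex then removes a carboxyl group irreversibly; Bckdha and Bckdhb form its E1 part, Dbt is its E2 core, and the kinase Bckdk inactivates it by phosphorylating E1. Ivd and the 2 subunits of methylcrotonyl-CoA carboxylase, Mccc1 and Mccc2, carry leucine further, whereas isoleucine and valine reach propionyl-CoA, which Pcca and Pccb carboxylate. Liver is known for high activity of the dehydrogenase complex and low activity of the aminotransferase. MicroRNAs (miRNAs) guide Ago proteins to mRNAs by pairing of their seed, bases 2 to 8 counted from the 5′ end, and miR-122-5p is the dominant miRNA of hepatocytes.

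Livers of C57BL/6 mice at 3 embryonic stages named by days after conception (e12.5, e15.5 and e18.5), at postnatal day 7 (P7) and at 6 to 8 weeks of age (adult) were examined by Ago HITS-CLIP, in which protein and RNA are joined by ultraviolet light (254 nm, 3 exposures of 0.2 J/cm2), Ago is precipitated and the attached RNA is sequenced. No stage carried a transgene or a drug. Ago2 antibodies were used throughout and an Ago1 antibody was added for P7 and adult liver, so antibody and stages after birth cannot be told apart. Each stage is 1 table, called a library here; the labels give no replicates, the methods name 2 biological replicates for Ago2, the study's supplement names a second e18.5 replicate that was not analysed here as a sample of its own, and no difference between stages has a replicate check or a test. Counting intervals below are at 95% and cover counting error only. The study's supplement marks bases of the 5′ linker as a barcode, and whether repeated reads were collapsed on it is not stated.

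The tables held between 81194 and 231477 clusters of overlapping reads, each with at least 1 seed match and at least 5 reads. Their summed cluster reads were between 13008703 and 44867326, of which clusters listed as 5′UTR, CDS or 3′UTR (mRNA clusters) held 23.3%, 29.7%, 30.03%, 20.5% and 13.5% in order of age. The read column is headed as reads of the miRNA target at e12.5 and as reads of the peak in the other tables, so every value of adult liver over e12.5 may compare different measures. Levels are given in RPM of all summed cluster reads, and where the falling mRNA share matters, also on the scale of mRNA cluster reads, as RPM of these. The 3 embryonic tables each hold 2 lists of entries, which the labels do not explain, so that a list cannot be tied to a replicate; they were added up, and their values are also shown apart. The first list of e15.5 has the fewest clusters, 13158, and the second list of e18.5 the fewest reads, 2699999, so that the lowest listed value of 5 reads equals 1.13 and 1.85 RPM in them. The cell make-up of liver also differs between the stages. The 10 hepatocyte markers summed to 1014, 3169, 9790, 10058 and 11404 RPM from e12.5 to adult liver, and all 10 were at least 2-fold higher in adult liver than at e12.5. The 8 erythroid markers found of 11 summed to 66326, 89804, 96289, 34560 and 1637 RPM, with reads shared by Hba-a1 and Hba-a2 counted for both, and all 8 were at least 2-fold lower. All 4 fetal hepatocyte markers found of 5 were lower, with Afp, Igf2 and Dlk1 at 0 in adult liver, and all 5 endothelial markers were higher. Of the leukocyte markers, 4 of 7 were higher and 2 lower; of the stellate and mesenchymal markers, 1 of 5 was higher and 2 lower; and of the 3 cholangiocyte markers that could be compared, 2 were higher. Fewer cells of a type and less RNA per cell cannot be told apart in such bulk tissue, and the part of the cell make-up in the results below was not tested.

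Target sites of miR-122-5p were listed under an mRNA region in 5 of the 10 genes, and 4 of these sites were found in more than 1 library. Over the 10739 genes, 24.4% had an mRNA cluster with such a site in at least 1 library. The fragments of these 4 sites are printed; those of Mccc1 and Bcat2 lie in the clusters of the 10 genes with the most reads, and those of Ivd and Bckdk are shown as the other recurring sites, with few reads. They run 5′ to 3′ as the tables give them, in lower case with the bases that match the seed in capitals; an 8mer site pairs with bases 2 to 8 and has an A opposite base 1, a 7mer-A1 site pairs with bases 2 to 7 and has this A, a 7mer-m8 site pairs with bases 2 to 8, and a 6mer pairs with bases 2 to 7.
Mccc1, chr3:35989846-35989867, minus strand, 8mer: cgagaagttcgtggACACTCCA
Bcat2, chr7:45589474-45589495, plus strand, 8mer: ccctcgtggacgttACACTCCA
Ivd, chr2:118871461-118871482, plus strand, 7mer-A1: ctcagctacggtgctCACTCCA
Bckdk, chr7:127904992-127905013, plus strand, 6mer: tggggtcctcactgtCACTCCg

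A further 4 sites are examples from other abundant miRNAs in the pathway. Those of Bckdha and Dbt were chosen after their values were seen, and those of Mccc2 and Bckdhb lie in the CDS cluster of these genes with the highest mean level.
Bckdha with miR-194-5p, chr7:25631785-25631802, minus strand, 7mer-m8: ggattgtgatCTGTTACt
Dbt with miR-29a-3p, chr3:116548416-116548437, plus strand, 7mer-m8: cggggcttccattaTGGTGCTg
Mccc2 with miR-27b-3p, chr13:99990307-99990327, minus strand, 8mer: ctactacccagtgACTGTGAA
Bckdhb with miR-30a-5p, chr9:83953749-83953770, plus strand, 6mer: tccgatgcactgttgGTTTACg

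The mature miRNAs of these 4 sites, from RefSeq (GRCm38.p6), are printed with their seed in capitals, so that the match can be read against the fragments.
miR-194-5p: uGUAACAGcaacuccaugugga
miR-29a-3p: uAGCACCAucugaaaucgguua
miR-27b-3p: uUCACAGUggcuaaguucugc
miR-30a-5p: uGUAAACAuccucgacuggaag

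All 1200 distinct site fragments listed for the members matched the GRCm38 sequence at their coordinates, so mm10 is the build of the coordinates printed here. The conservation value given by the authors, from 0 to 1, was 0.854 for the Mccc1 site, 0.995 for the Bcat2 site, 0.999 for the Ivd site and 0.003 for the Bckdk site.

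The leading cluster of the 10 genes by mean level over the libraries was that of Mccc1, the biotin-carrying subunit of methylcrotonyl-CoA carboxylase. At e12.5 the Bcat2 cluster with a miR-122-5p site held more reads, 692 against 503. The cluster with its miR-122-5p 8mer held 503, 429, 1077, 4417 and 3991 reads in order of age, or 11.2, 26.0, 82.8, 267.7 and 160.4 RPM. The 3 embryonic libraries were below both libraries after birth, and P7 was the highest. In the first and second list the cluster had 4.32 and 14.6 RPM in the youngest library and 82.5 and 84.1 at e18.5, while the e15.5 table had it in the second list alone, at 35.5. The log2 difference of adult liver over e12.5 was 3.84 (counting interval 3.70 to 3.98), a 14.3-fold difference, and that of P7 over e18.5 was 1.69 (1.60 to 1.79). It was the second highest of 592 clusters with a miR-122-5p site under a 3′UTR in adult liver, the second of 785 at P7, the fifth of 453 at e18.5, the eighth of 262 at e15.5 and the 14th of 478 at e12.5. Among all mRNA clusters with a miR-122-5p site, CDS clusters included, it was number 10 of 1776 in adult liver, number 5 of 2018 at P7, 19 of 1265 at e18.5, 18 of 766 at e15.5 and 38 of 1297 at e12.5. This single cluster made up 73.3% of the mRNA cluster reads of Mccc1 in the youngest library and 94.0% in the oldest.

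The tables list this Mccc1 site under the CDS, under the 3′UTR and under a noncoding exon at once, and the region depends on the transcript. The 3′UTR entry rests on 1 transcript, which is not in GENCODE vM21. In the principal protein-coding transcript (ENSMUST00000029259.9) the seed match, chr3:35989847-35989853, lies in the CDS, in exon 7 of 19, and ends 3 bases before the 3′ end of that exon; in ENSMUST00000200162.1, annotated as subject to nonsense-mediated decay, the same bases count as 3′UTR. In adult liver the cluster also holds sites that reach up to 12 bases past that exon end, with 3990 and 3991 reads at the outermost, where a longer form of the exon in another transcript annotated for nonsense-mediated decay extends by 11 bases. Of the 12 places listed under the 3′UTR of Mccc1 in any library, all 12 lie in the CDS of the principal transcript and 0 in its 3′UTR of 183 bases.

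The second miR-122-5p cluster was that of Bcat2, and here the annotation is unambiguous: the seed match, chr7:45589488-45589494, lies in the 3′UTR in exon 11, the last exon of the principal transcript (ENSMUST00000033098.15). The cluster had 692, 251, 584, 1464 and 677 reads from e12.5 to adult liver, or 15.4, 15.2, 44.9, 88.7 and 27.2 RPM. P7 was the highest library, and adult liver lay between the 2 earlier embryonic libraries and e18.5. The lists differed by more than 2-fold at every embryonic stage, with 25.9 and 10.2 RPM for e12.5, then 1.13 and 20.3, and then 50.2 and 24.4 for e18.5. The log2 difference of adult liver over e12.5 was 0.82 (0.66 to 0.97) and that of P7 over e18.5 was 0.98 (0.84 to 1.12), both short of 2-fold; on the scale of mRNA cluster reads they were 1.61 and 1.54, both past it. The direction of adult liver over e12.5 was not settled, since the value was -0.22 on the scale of the read number of the miRNAs and 0.069 with the first list alone. Against P7, adult liver was lower by 1.71 on the log2 scale for Bcat2, whose value is -1.71 (-1.84 to -1.57), and for Mccc1 the value was -0.74 (-0.80 to -0.68). On the scale of mRNA cluster reads, Mccc1 was at 1308 at P7 and 1191 in adult liver, and Bcat2 at 434 and 202.

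The abundance of miR-122-5p itself, taken from the whole number that each entry gives for its miRNA and that is read here as its read number, though the tables do not say so, was 1.32% of the summed miRNA number in the youngest library, then 3.02%, 9.12% and, after birth, 12.3% (P7) and 11.2% (adult). With the lists added up, the Mccc1 cluster stood in the same order, but its step from e12.5 to e15.5 was not settled, as the first list went from 4.32 RPM to not listed and the second from 14.6 to 35.5. Over so few libraries no correlation was computed. For Bcat2 the order could not be settled: e12.5 and e15.5 were nearly equal, with the 2 lists going opposite ways, and e18.5 was above adult liver among all cluster reads and below it among mRNA cluster reads.

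**Figure D1:**
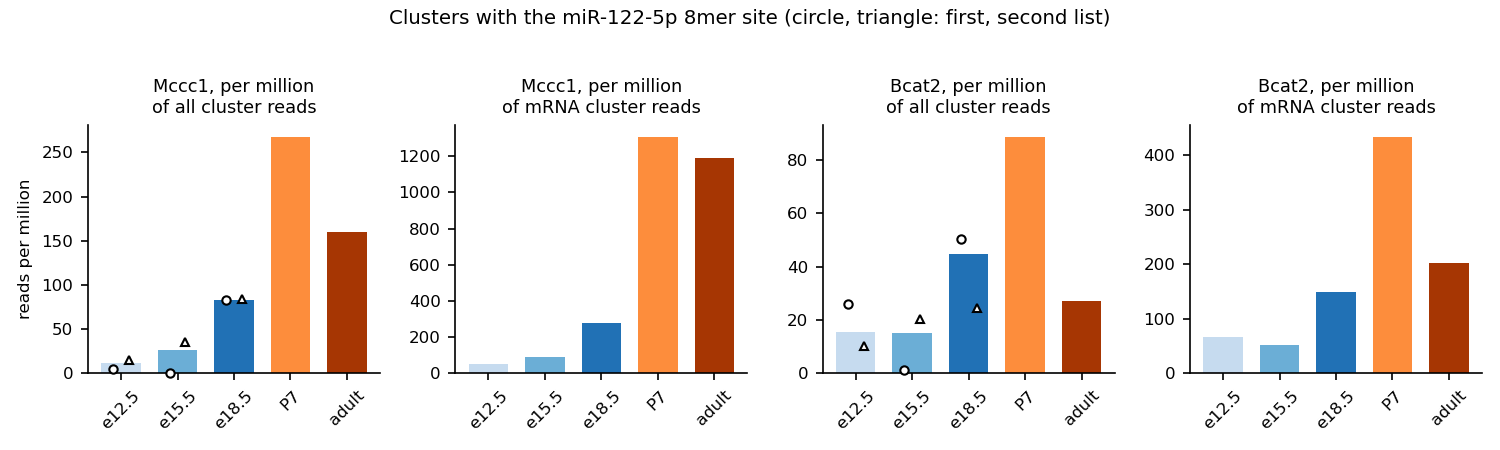
Reads of the clusters with the miR-122-5p 8mer of Mccc1 (first 2 panels) and Bcat2 (last 2 panels) in each library, in RPM of all cluster reads and of mRNA cluster reads; bars are the added lists, and the circle and triangle are the first and second list of an embryonic table. P7 is the highest bar in all panels, Mccc1 reaches 267.7 RPM there, and the Bcat2 bar of adult liver (27.2) is below that of e18.5 (44.9) on the first scale and above it on the second.

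Ivd, isovaleryl-CoA dehydrogenase of the leucine branch, and Bckdk carried miR-122-5p sites with far fewer reads. The Ivd 7mer-A1 (listed at chr2:118871475-118871481, the bases opposite bases 2 to 8 of the miRNA, in the CDS, exon 4) had 15, 21 and 8 reads at e12.5, P7 and adult age. The Bckdk 6mer (chr7:127905007-127905012, CDS, exon 2) had 23, 75 and 95 reads at e18.5, P7 and adult age, and its cluster was the highest CDS cluster of the gene by the mean over the libraries, though another reached 6.92 RPM at e18.5. A 6mer in the 3′UTR of Bckdha had 29 reads at P7 alone. Mccc2 had no miR-122-5p site under an mRNA region, but an intronic 7mer-A1 had 101, 35 and 142 reads in the 3 oldest libraries. Counted per library, 3 members had an mRNA site of miR-122-5p at e12.5, followed by 2, 3, 5 and 4 in the later libraries. The share of all 10739 genes with such a site was 9.18%, 6.00%, 8.22%, 15.8% and 13.996% in the same order and was, like the members' count, lowest at e15.5 and highest at P7. Dbt, Bckdhb, Mccc2, Pcca and Pccb had none in any library, and tables that list only clusters of at least 5 reads do not show that such sites are unbound.

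The levels of the genes were then followed over all of their mRNA clusters. Bcat2 had 18.2, 15.2, 44.9, 100.8 and 33.7 RPM in order of age. Mccc1 had 15.3, 30.8, 93.9, 288.4 and 170.6. Both were highest at P7, and together they held 53.1%, 44.5%, 60.8%, 76.6% and 62.9% of the members' reads. Without their miR-122-5p clusters, Mccc1 had 4.08 RPM in the youngest and 10.2 in the oldest library, and Bcat2 had 2.81 and 6.47.

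Within the dehydrogenase complex, Bckdha had 3.16, 10.7, 14.5, 42.1 and 34.7 RPM from e12.5 to adult liver, with P7 and adult liver above all embryonic libraries. Its E1 partner Bckdhb had 0.111, 0, 14.2, 7.52 and 12.02; the value at e12.5 is a single cluster of 5 reads, no mRNA cluster was listed at e15.5, and at e18.5 its 185 reads came from the first list alone. The E2 gene Dbt had 4.19, 30.2, 3.00, 16.4 and 27.1, without an order by age, and at e15.5 its lists gave 53.9 and 21.5. The kinase Bckdk had 2.54, 2.97, 17.5, 7.09 and 6.03 and was highest at e18.5, where the lists gave 17.5 and 17.8. On this scale Bckdha was highest at P7, Bckdhb and Bckdk at e18.5 and Dbt at e15.5. The order depends on the scale, since among mRNA cluster reads Bckdha, Bckdhb and Dbt were each highest in adult liver, at 257.8, 89.2 and 201.1 RPM, and only the kinase Bckdk was still highest at e18.5, at 58.4.

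In the leucine branch, Ivd had 10.3, 6.30, 20.7, 16.6 and 19.2 RPM, a range of about the size of the gap between its lists at e12.5 (21.9 and 4.56). Mccc2, the partner subunit of Mccc1, had 2.88, 1.63, 0, 3.82 and 6.59, and no mRNA cluster at e18.5 in either list, although intronic clusters held 14.5 RPM there. The 2 subunits of 1 enzyme lay far apart: per kilobase of the principal transcript, Mccc1 had 117.5 RPM at P7 and 69.5 in adult liver, and Mccc2 had 1.80 and 3.10. Without the miR-122-5p cluster Mccc1 had 8.42 and 4.17 RPM per kilobase, which left a smaller gap at P7 and a small one in adult liver. In the propionyl-CoA step, Pcca had 1.58, 3.21, 14.1, 3.88 and 6.11 and was highest at e18.5, while Pccb had 4.79, 2.18, 5.46, 21.5 and 8.72 and was highest at P7, where 1 cluster held 90.1% of its reads.

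**Figure D2:**
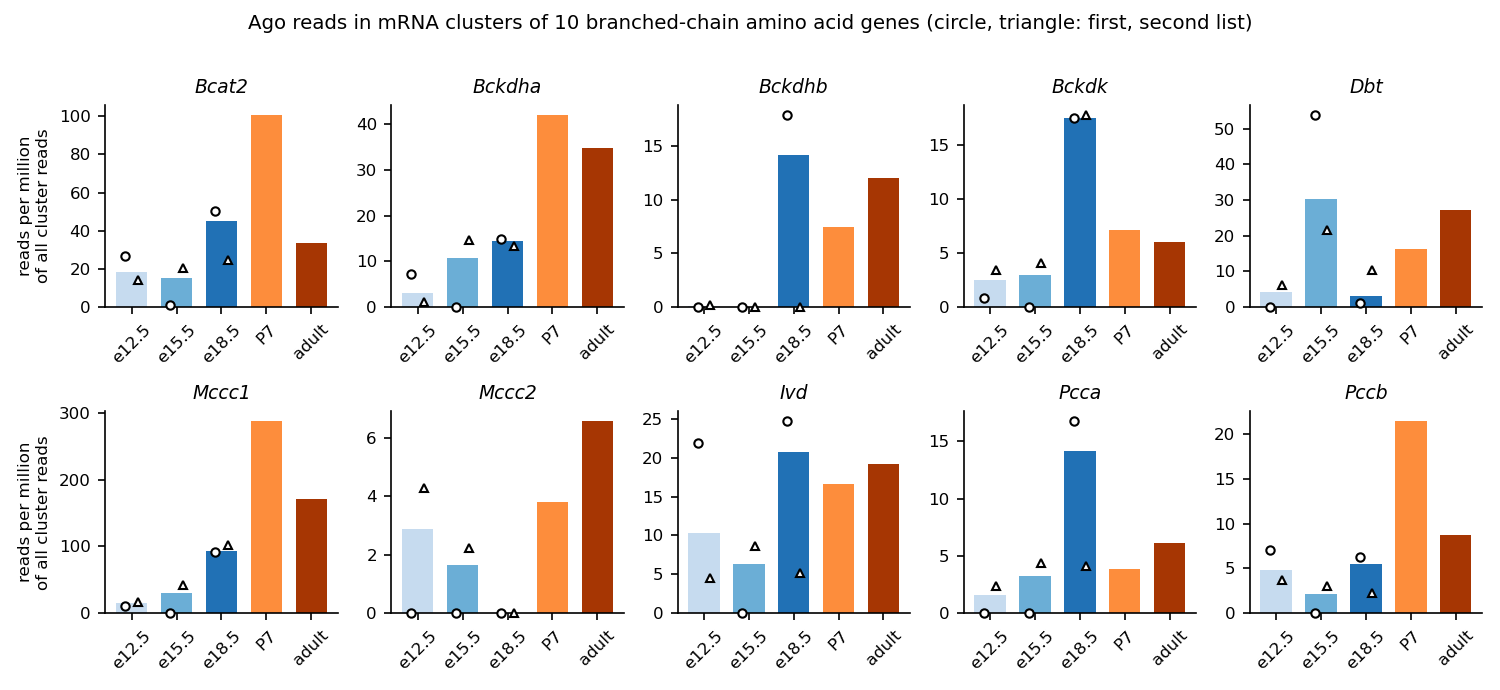
Level of each gene in its mRNA clusters, in RPM of all cluster reads (1 panel a gene, each with its own scale from 0) in the 5 libraries; circles and triangles are the first and second list of an embryonic table. Mccc1 and Bcat2 reach 288.4 and 100.8 RPM at P7, and the lists of several other genes lie as far apart as the stages do.

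Adult liver was set against e12.5 to compare the latest with the earliest stage. Here all genes are the 10551 of the comparison group that were listed in at least 1 of both libraries, since a gene listed in neither has no fold. All 10 members were higher in adult liver, as were 32.6% of all genes, but Ivd turned to -0.20 on the log2 scale with the first list of e12.5 alone. Of the 10, 7 were at least 2-fold higher (22.2% of all genes) and 0 at least 2-fold lower (53.0%). The log2 values were 6.75 for Bckdhb (5.51 to 8.39), 3.48 for Mccc1 (3.36 to 3.60), 3.46 for Bckdha (3.20 to 3.72), 2.69 for Dbt (2.46 to 2.93), 1.95 for Pcca (1.53 to 2.38), 1.25 for Bckdk (0.89 to 1.61) and 1.20 for Mccc2 (0.86 to 1.54). The Bckdhb value rests on 5 reads at e12.5. Ivd (0.90), Bcat2 (0.89) and Pccb (0.86) were short of 2-fold, with counting intervals that reach past it, and that of Bckdk and of Mccc2 reach below it. With the second list of e12.5 alone Bckdk was at 0.83 and Mccc2 at 0.62, both short of 2-fold, and with the first at 2.90 and 4.29. Mccc2 had no mRNA cluster in that first list, so that its value of 4.29 rests on the floor of 5 reads. The median over the members was 1.60 and over all genes -1.18. On the scale of mRNA cluster reads, all 10 were at least 2-fold higher, with 30.0% of all genes at least 2-fold higher and 40.4% lower, a median of 2.39 for the members and -0.39 for all genes. With e15.5 in place of e12.5, 8 of the 10 were at least 2-fold higher in adult liver (24.9% of 10343 genes) and 0 lower (51.3%). In 3′UTR clusters alone, where 7 of the 10 had a value, 3 were at least 2-fold higher (19.2% of 8576 genes) and 3 lower (60.9%), of which Bckdk and Pccb had no such cluster in adult liver. The 3 higher were Dbt, Mccc1 and Pcca. All 12 places of Mccc1 and both of Pcca that are listed as 3′UTR lie in the CDS of the principal transcript, and Pcca had no such cluster at e12.5, so that its value of 3.17 rests on the floor of 5 reads. Hepatocyte markers were higher and erythroid markers lower between the same 2 libraries, as given above.

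P7 was set against e18.5 to compare the stages on either side of birth. Here the genes went apart: 6 of the 10 were at least 2-fold higher at P7 (28.5% of the 10552 genes listed in either library) and 2 were at least 2-fold lower (32.9%). Higher were Dbt (log2 2.45, interval 1.96 to 2.97), Pccb (1.97, 1.60 to 2.36), Mccc1 (1.62, 1.53 to 1.71), Bckdha (1.53, 1.30 to 1.77), Bcat2 (1.17, 1.03 to 1.31) and Mccc2 (3.31, 2.01 to 4.98). Mccc2 was not listed at e18.5, and its value rests on setting it to 5 reads there. Lower were Pcca, at -1.87 (-2.30 to -1.45), and the kinase Bckdk, at -1.31 (-1.64 to -0.98). Bckdhb, at -0.92, and Ivd, at -0.32, were within 2-fold. The median was 1.35 for the members and -0.28 for all genes. On the scale of mRNA cluster reads the same count of 6 were higher and 1, Pcca, was lower, against 35.9% and 22.3% of all genes. All 8 erythroid markers were at least 2-fold lower at P7 as well, while 1 of the 10 hepatocyte markers was higher and 1 lower. Of the endothelial markers 4 of 5 were at least 2-fold higher and 1 lower (median log2 1.37, summed level 66.8 RPM at e18.5 and 203.1 at P7), and of the leukocyte markers 4 of 7 were higher and 2 lower (median 1.19, with a summed level that went from 289.0 to 113.8 RPM). Of the stellate and mesenchymal markers 2 of 5 were higher and 0 lower, of the 3 cholangiocyte markers with a value 1 was higher and 2 lower, and of the 4 fetal hepatocyte markers 0 were higher and 1 lower. Their part in the result was not tested.

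**Figure D3:**
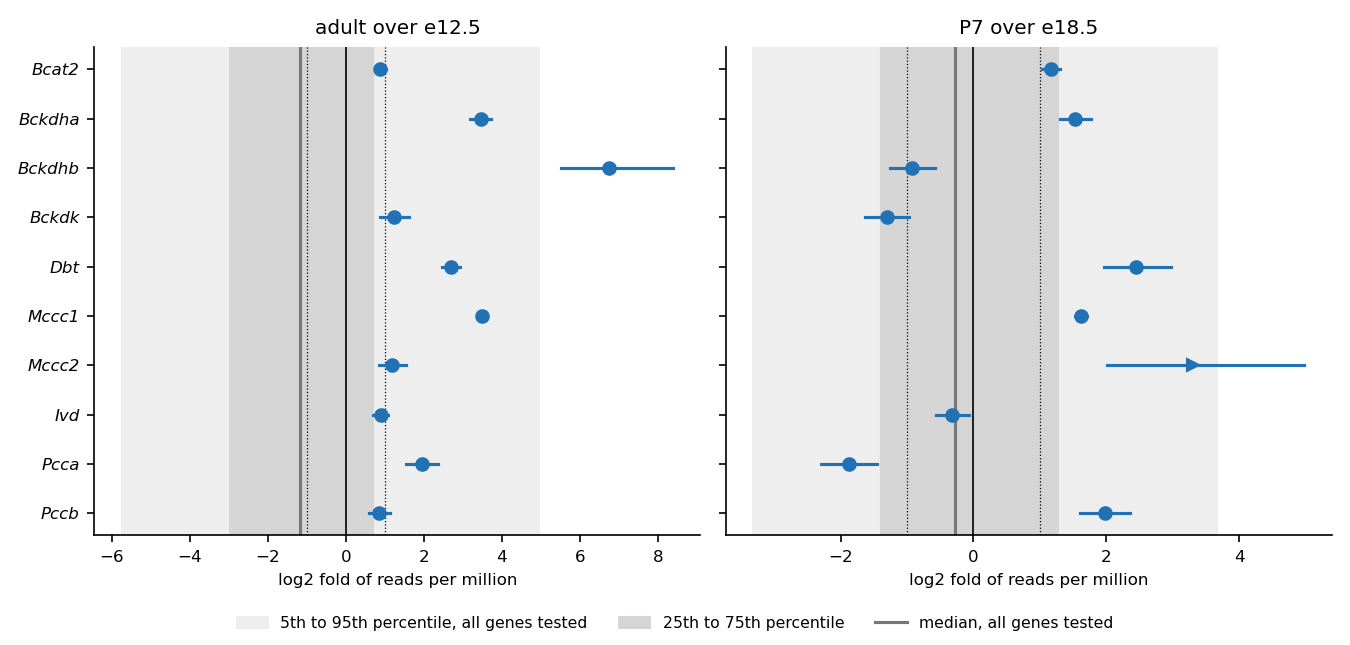
Log2 fold of RPM of each gene in adult liver over e12.5 (left) and P7 over e18.5 (right); points with lines are the values with their 95% counting intervals, a triangle is a gene set to 5 reads in the library where it was not listed, and the grey bands and line show the percentiles and median of all genes with a fold (10551 and 10552). All 10 genes lie to the right of 0 on the left side, with a median of 1.60 against -1.18 for all genes, and on both sides of 0 on the right side.

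The members' clusters lay mostly in coding sequence. Of their distinct mRNA clusters, 35 of 43 were listed under the CDS in the e12.5 table (81.4%, Wilson interval 67.4 to 90.3), followed by 18 of 22 (81.8%, 61.5 to 92.7), 24 of 31 (77.4%, 60.2 to 88.6), 63 of 81 (77.8%, 67.6 to 85.5) and, for adult liver, 65 of 74 (87.8%, 78.5 to 93.5). Over all genes the shares were 61.3%, 62.8%, 63.4%, 65.5% and 72.9%. The members' share was above that of all genes in each library, and its interval included the value of all genes at e15.5 and e18.5. The intervals treat clusters as independent, although these come from only 10 genes, so they do not test a difference from all genes. With each cluster counted once and the 3′UTR given precedence, the CDS share was 69.8%, 68.2%, 64.5%, 61.7% and 79.7% for the members and 54.6%, 56.2%, 57.4%, 59.2% and 66.5% for all genes, in order of age, and the members' interval then included the value of all genes at P7 too. Coding sequence made up 60.3% of the summed length of the 10 principal transcripts and 3′UTRs 34.1%. Of 47 places listed under a 3′UTR of a member in any library, 31 lay in the 3′UTR of the principal transcript and 16 in its CDS, 12 of them in Mccc1. By reads, with the 3′UTR entry given precedence, clusters listed under a 3′UTR held 62.6%, 48.8%, 68.0%, 79.0% and 64.3% of the members' mRNA reads in order of age, against 55.8%, 54.7%, 55.5%, 49.8% and 33.3% over all genes. The members' share includes the Mccc1 cluster that is CDS in the principal transcript.

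The genes also differed in how often they were listed under introns. A cluster can be listed under an intron and the CDS at once, so these counts overlap. At e15.5, for instance, Pcca had 2 clusters, with 2 listed under the CDS and 2 under introns. Pcca, whose gene spans 356.8 kb, had 39 intronic and 18 CDS clusters summed over the libraries, and Bckdhb, which spans 199.1 kb, had 27 and 12. Bckdk, which spans 6.14 kb, had 0 intronic clusters and 11 CDS clusters, and Ivd had 6 and 31. Mccc2 had 13 CDS clusters, 9 intronic clusters and 0 under a 3′UTR.

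**Figure D4:**
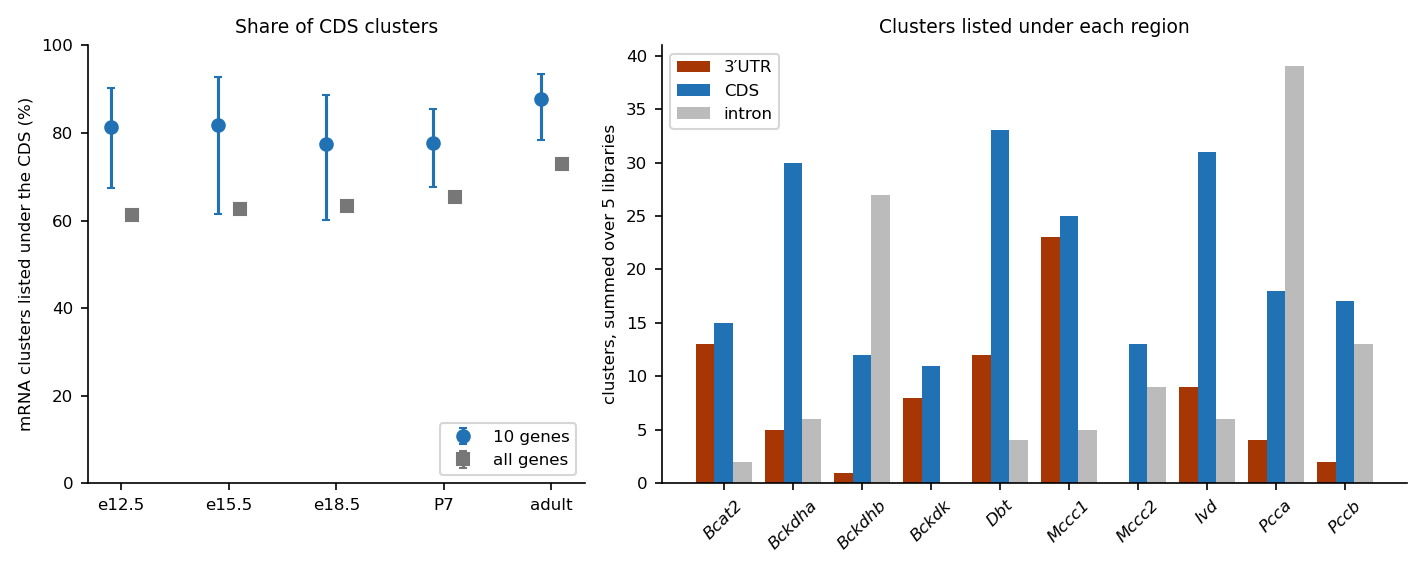
Left, percentage of mRNA clusters listed under the CDS in each library for the 10 genes and for all genes, with Wilson 95% intervals; right, number of clusters of each gene listed under the 3′UTR, the CDS and introns, summed over the 5 libraries. The 10 genes lie between 77.4% and 87.8% and all genes between 61.3% and 72.9%, and intronic clusters exceed CDS clusters in Pcca and Bckdhb only. A cluster listed under several regions is counted in each.

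Most places were seen once. Of 162 separate places with an mRNA cluster of a member, 114 (70.4%, Wilson interval 62.9 to 76.9) were found in 1 library only and 4 (2.47%, 0.96 to 6.18) in all 5, close to the 71.6% and 1.69% of all 209925 such places. The 4 were the miR-122-5p clusters of Mccc1 and Bcat2, a second place in Mccc1 and 1 in Bckdha. The second Mccc1 place (chr3:35972492-35972537) had 1.23, 3.81, 10.8, 13.03 and 7.51 RPM from e12.5 to adult liver, with P7 highest, as in the miR-122-5p cluster.

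Sites of the 32 miRNAs that were among the 20 most abundant of any library, or of the miR-29 family, were then listed over the members. There were 67 such sites for 27 miRNAs, of which 29 were found in at least 2 libraries and 3 in all 5, namely the Mccc1 and Bcat2 sites of miR-122-5p and a Bckdha site of miR-194-5p. The count takes each miRNA apart, so that members of a family with the same seed share a site. By miRNA, miR-16-5p had the most, with 9 sites in 7 of the genes, and miR-122-5p had 5 sites in 5. Ivd had the most sites, 15, followed by Dbt with 13, while Mccc1 had only its miR-122-5p site and Pcca had 1.

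The Bckdha site of miR-194-5p (chr7:25631786-25631792, CDS, conservation 1) had 21, 87, 17, 162 and 288 reads in order of age. The miRNA made up 0.641%, 1.82%, 1.99%, 9.29% and 10.01% of the miRNA number. The site had its highest reads in P7 and adult liver, the libraries where the miRNA was most abundant. The site was chosen after its values were seen, so this is a description. Over all its mRNA clusters Bckdha was also highest in these libraries, at 42.1 RPM at P7 and 34.7 in adult liver. A second miR-194-5p site lay in the CDS of Pccb (conservation 1), with 64 reads in adult liver and 11 at P7. The highest CDS cluster of Bckdha by mean level was another, with 0, 90, 99, 155 and 392 reads in order of age. It held a 6mer of the blood-cell miRNA miR-142a-3p, listed with 58, 39 and 48 reads in the 3 oldest libraries. That miRNA made up 21.7%, 8.88% and 4.34% of the miRNA number in these 3 libraries. In Bckdha, miR-192-5p had a 7mer-A1 with 100 reads at P7 and 37 in adult liver.

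The Dbt 3′UTR holds the site printed above for the miR-29 family. It had 7 reads at e15.5, 13 at P7 and 64 in adult liver (chr3:116548430-116548436, conservation 0.993), and it was not listed at e12.5 or e18.5. The share of miR-29a-3p was between 0.057% and 0.218% in the first 4 libraries and 1.61% in adult liver. As for Bckdha, the Dbt site was chosen after its values were seen. A 6mer of the same family lay in the CDS of Ivd, directly beside the miR-122-5p match and in the same cluster, with 15, 26, 21 and 8 reads at e12.5, e18.5, P7 and adult liver. An 8mer of the family in the CDS of Ivd (chr2:118876385-118876391, conservation 1) was listed in adult liver alone, with 49 reads. The highest 3′UTR cluster of Dbt had a 7mer-A1 of miR-223-3p, a myeloid miRNA, with 18 reads at P7 and 68 in adult liver.

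For Bckdhb, the highest CDS cluster had a 6mer shared by miR-30a-5p and miR-30e-5p, with 185, 58 and 190 reads in the 3 oldest libraries (conservation 0.994). For Mccc2, it had an 8mer shared by miR-27a-3p and miR-27b-3p, with 76 reads at e12.5, 19 at P7 and 72 in adult liver (conservation 0.858). The Bcat2 3′UTR held, beside the miR-122-5p site, an 8mer of miR-92a-3p with 33 reads at e12.5 and 26 at P7 (conservation 0.999), and a 7mer-A1 of miR-378a-3p with 33, 6 and 152 reads at e12.5, e18.5 and in adult liver. The highest CDS clusters of Dbt, Ivd, Pcca and Pccb and that of Bcat2 held no site of an abundant miRNA. Which miRNA held Ago at a cluster with several seed matches was not tested.

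The rest of the pathway was taken from a list of 23 other genes of branched-chain amino acid breakdown, all of them listed in at least 1 library and 22 with a mean of at least 1 RPM. In adult liver over e12.5, 12 of the 22 were at least 2-fold higher (22.2% of all genes) and 5 at least 2-fold lower (53.0%), with a median log2 of 1.37 against -1.18 for all genes. Of the 8 with the largest differences, all higher, 7 are described. Hadha, the alpha subunit of the trifunctional protein of fatty acid oxidation, had 62.1, 98.2, 277.0, 360.9 and 368.7 RPM in order of age, a log2 difference of 2.57. Aldh6a1, methylmalonate semialdehyde dehydrogenase of the valine branch, was higher by 3.09, and Acad8, isobutyryl-CoA dehydrogenase, by 2.34. Mcee, methylmalonyl-CoA epimerase, had a log2 difference of 3.64 and Mmab, an enzyme of cobalamin metabolism, of 2.82, each from under 1 RPM at e12.5. Klf15, a transcription factor known to induce genes of this pathway, had 2.78, and Slc25a44, the mitochondrial carrier of branched-chain amino acids, 2.06.

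The 5 lower genes were Bcat1, Acadsb, Auh, Hibadh and Hibch. Bcat1, the cytosolic counterpart of Bcat2, had 0.691 and 10.8 RPM in the 2 youngest libraries and was not listed later. Acadsb, the short branched-chain acyl-CoA dehydrogenase of isoleucine breakdown, had 29.6 at e12.5 and 9.12 in adult liver, a log2 difference of -1.70. On the scale of mRNA cluster reads, 13 of the 22 were at least 2-fold higher (30.0% of all genes) and 0 lower (40.4%), so the lower group depends on the scale. For P7 over e18.5, where Bcat1 was listed in neither library, 6 of the other 21 were at least 2-fold higher and 1, Auh, was lower, with a median of 0.62, where 28.5% of all genes were higher and 32.9% lower. On the scale of mRNA cluster reads 11 of the 21 were higher and 0 lower, with a median of 1.17, against 35.9% and 22.3% of all genes.

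**Figure D5:**
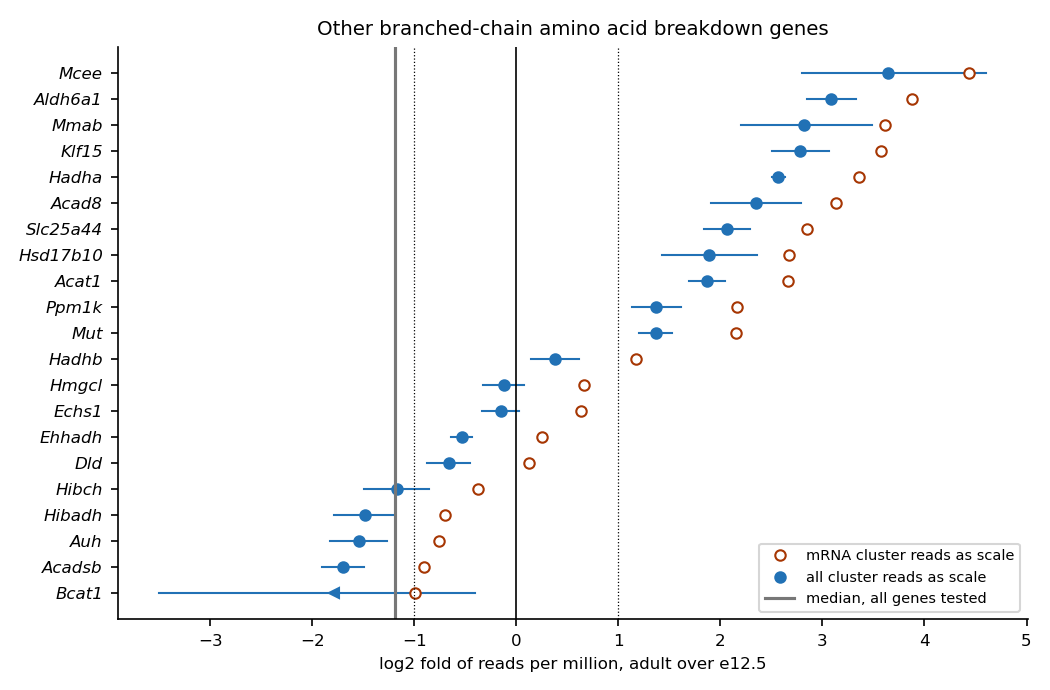
Log2 fold of RPM in adult liver over e12.5 for 21 of the 22 other pathway genes, with all cluster reads as the scale (filled, with 95% counting intervals, a triangle for a gene not listed in 1 library) and with mRNA cluster reads as the scale (open). Mcee is the highest drawn at 3.64, 11 filled points lie at or above 1 and 5 at or below -1, and 0 open points lie at or below -1.

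The genes with the profile most like that of Mccc1, by the Euclidean distance of log2(RPM in 3′UTR clusters + 1) over the 5 libraries, included Ahsg (1.36) and Ttr (1.40). Ahsg and Ttr encode plasma proteins secreted by hepatocytes, and Ahsg had 13.1, 38.3, 213.5, 399.2 and 212.6 RPM in 3′UTR clusters. The 12 places of Mccc1 listed under the 3′UTR lie in the CDS of its principal transcript. Over all mRNA clusters Ahsg had 92.5, 383.4, 2139, 1074 and 651.2 RPM and was highest at e18.5. On that measure Ttr, at 878.8 RPM, and Mccc1, at 288.4 RPM, were highest at P7. For Bcat2 the genes with the most similar profile were Pura (1.17), Lifr (1.23) and Apob (1.35). Lifr, the receptor of leukaemia inhibitory factor, had 19.1, 29.2, 77.3, 109.3 and 31.3 in 3′UTR clusters, with P7 highest, as for Bcat2. Apob, the apolipoprotein B of secreted lipoproteins, had 12.99, 18.6, 71.5, 44.4 and 25.1 in these clusters and was highest at e18.5. Over all mRNA clusters Apob had 128.4, 266.3, 591.8, 1159 and 798.3 RPM and was highest at P7.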

How the data were processed

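Ago HITS-CLIP tables of miRNA-target interactions were used, 1 for each of 5 stages of mouse liver. The authors preprocessed reads with the FASTX-Toolkit, aligned them by Bowtie against mm10 and the precursors of miRBase release 19, and grouped overlapping reads into clusters. They annotated these clusters with UCSC refGene and Ensembl and searched them for seed matches. The processing notes name Bowtie, mm9 and mm10, without versions. The deposited read column is a signal, whole read numbers, not scaled, of the target at e12.5 and of the peak elsewhere, and it is not stated whether these are the same measure. The deposited conservation and free energy columns are each a score. The genes and lists were chosen with earlier results of these data known.

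A cluster was given its highest read number, and a gene the sum over its distinct mRNA clusters, divided by the table's summed cluster reads. Clusters of the 2 lists of an embryonic table that overlap on a strand were counted once. A gene not listed in 1 of 2 libraries was set to 5 reads for folds, a gene listed in neither was left out, and a 2-fold difference was counted as changed. Intervals are Wilson for shares and exact binomial for folds, at 95%. The genes named are the 10 members, up to 8 other pathway genes by fold, miR-122-5p sites found in at least 2 libraries, and the highest cluster of each member and region with its sites of abundant miRNAs. One such pathway gene and a gene of similar profile are not reported here. Sites were placed in GENCODE vM21 transcripts. In tables simulated from the 10739 genes for adult over e12.5, 100 of 100 genes changed 4-fold and 100 of 100 changed 8-fold were recovered, and 7 of 10539 unchanged genes were called; this simulated counting error only and does not bear on differences between libraries. Python 3.11.15, numpy 2.4.6, pandas 2.3.3, scipy 1.17.1, pysam 0.24.0 and matplotlib 3.10.9 were used.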

Additional observations from a re-analysis of the deposited data

How the results depend on the processing

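With 1 library a stage, no replicate could be left out. No paired analysis was possible because each stage has 1 sample and the labels give no replicate numbers. Of the alternatives for the counts, medians, cluster folds and shares, 59 kept within 1.5 times or within the counting interval of the value reported, 24 moved and 1 reversed; for the log2 values of single members 27 kept, 56 moved and 4 reversed. In adult liver over e12.5, 3′UTR clusters alone gave 3 of the 7 members with a value at least 2-fold higher and 3 lower (19.2% and 60.9% of 8576 genes), and a fold of 4 gave 4 of 10 higher (15.2% of all genes). The median log2 of the members was 1.60 as reported, 2.39 with mRNA cluster reads as the scale, 2.78 with the median of all genes set to 0, 3.42 in the first list, 2.24 in CDS clusters and 0.89 in 3′UTR clusters. For P7 over e18.5, the lower members were 1 instead of 2 with mRNA cluster reads as the scale (22.3% of all genes), in the second list (20.2%) and by the number of clusters (12.1%), and 3 with clusters of at least 10 reads (34.7%) and in the first list (36.2%). By the number of clusters, 4 instead of 6 were higher (26.4%), and a fold of 4 gave 2 higher and 0 lower (18.1% and 15.2%). Sites of miR-122-5p were found in 3 members instead of 5 as 7mer or 8mer sites (14.3% of all genes), in 3 under a 3′UTR (10.1%) and in 3 under the CDS (16.1%).

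For the Mccc1 cluster with the miR-122-5p site the log2 difference of adult liver over e12.5 was 4.63 with mRNA cluster reads, 2.80 with the read number of the miRNAs, 5.21 in the first list and 3.46 in the second. For the Bcat2 cluster it was 1.61, -0.22, 0.069 and 1.41 in the same order, so its direction depends on the scale. The CDS share at P7 was 61.7% when a cluster in several regions was counted once with the 3′UTR first. Of single members, Ivd turned to -0.20 in the first list, and in 3′UTR clusters Bckdk turned to -2.998, Ivd to -1.46 and Pccb to -4.09, the values of Bckdk and Pccb being bounds, as no such cluster was listed in adult liver. The comparison with e15.5 in place of e12.5, the counts without the miR-122-5p clusters (7 of 10 members at least 2-fold higher, and 21.5% of all genes, without any such cluster in any gene) and the pathway list with mRNA cluster reads were added after the data were seen. For P7 over e18.5 without any such cluster, 5 of 10 members were at least 2-fold higher (28.5% of all genes) and 2 lower (33.6%). Mccc1 without its miR-122-5p cluster had 11.1 RPM at e18.5 and 20.7 at P7. The cause of these shifts was not tested. Clusters under 5 reads are not in the tables, which limits what can be said of members that were not listed.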
